A study of Mus musculus with 60 samples.

Results

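The vesicular glutamate transporters are 3 genes, Slc17a6, Slc17a7 and Slc17a8, which were taken by exact name from the 24378 features of an RNA sequencing table of mouse embryonic brain. All 3 were listed. They encode the proteins VGLUT2, VGLUT1 and VGLUT3, which sit in the membrane of synaptic vesicles and fill them with glutamate, the main excitatory transmitter of the brain. A neuron that releases glutamate uses at least 1 of them, so their transcripts are common markers of glutamatergic neurons. In the adult rodent brain VGLUT2 is known mostly from subcortical neurons, brainstem and diencephalon included, and VGLUT1 mostly from cerebral and cerebellar cortex. VGLUT3 is known from neurons that also release another transmitter, such as serotonergic raphe neurons and cholinergic interneurons.

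Slc17a6 lies on the plus strand of chromosome 7 (chr7:51622006-51671119) and Slc17a7 on the plus strand of the same chromosome (chr7:45163949-45176142). Slc17a8 lies on the minus strand of chromosome 10 (chr10:89574020-89621253). These positions are those of the GENCODE annotation of mm10. Values were deposited per kilobase of listed transcript length, which was 4420 bases for Slc17a6, 3040 for Slc17a7 and 4552 for Slc17a8. The only annotated genes inside them, Gm45072 in Slc17a6 and Mir7055 in Slc17a7, were not listed in the table.

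The study compared the ventral midbrain, where dopaminergic neurons arise, with 4 other regions: ventral forebrain, ventral hindbrain, dorsal midbrain and alar plate. Each region was sampled daily between E11.5 and E14.5 (embryonic days) at 4 stages, with 3 libraries each, giving 20 groups and 60 libraries. All embryos, those of every region and stage, carried the same TH-GFP transgene, a green reporter for tyrosine hydroxylase, and there was no other genotype or treatment. Pieces were cut by hand under a stereomicroscope with ultraviolet light, and the ventral midbrain pieces held floor plate and basal plate. In such bulk pieces, fewer cells of a type and less RNA per cell cannot be told apart. Nothing in the labels ties a library to its own embryo or litter. The p-values therefore reflect how much these samples vary, and that variation may be technical.

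Values are RPKM, reads per kilobase of transcript per 1000000 reads assigned to listed features. Whole reads could be recovered from them, and library totals, in units of 1000000 reads, lay between 1.58 and 6.43 for E11.5. They lay between 8.67 and 13.1 for E12.5, between 4.97 and 23.6 for E13.5, and between 0.979 and 6.13 for E14.5. Each library was matched to the mean profiles of the 5 regions at E12.5 to E14.5, its own stage left out, and 10 of the 60 matched another region better than their own. These were 7 of the 15 libraries at E11.5, 3 of 15 at E12.5 and none later. At E11.5 they were ventral midbrain replicate 4, ventral forebrain replicates 4 and 6, ventral hindbrain replicate 2 and all 3 alar plate libraries. At E12.5 they were ventral forebrain replicates 2 and 3 and alar plate replicate 3. In ventral forebrain replicates 4 and 6 at E11.5, the hypothalamic factor Nkx2-1 was listed at 0 and the serotonin enzyme gene Tph2 stood at 9.1 and 8.81 RPKM. In ventral forebrain replicate 2 of that stage, Nkx2-1 stood at 30.8 RPKM and Tph2 was listed at 0. Where a call rests on these libraries, the value without them is given beside it where one could be had. Without them the ventral forebrain kept only replicate 2 at E11.5 and replicate 1 at E12.5.

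**Figure D1:**
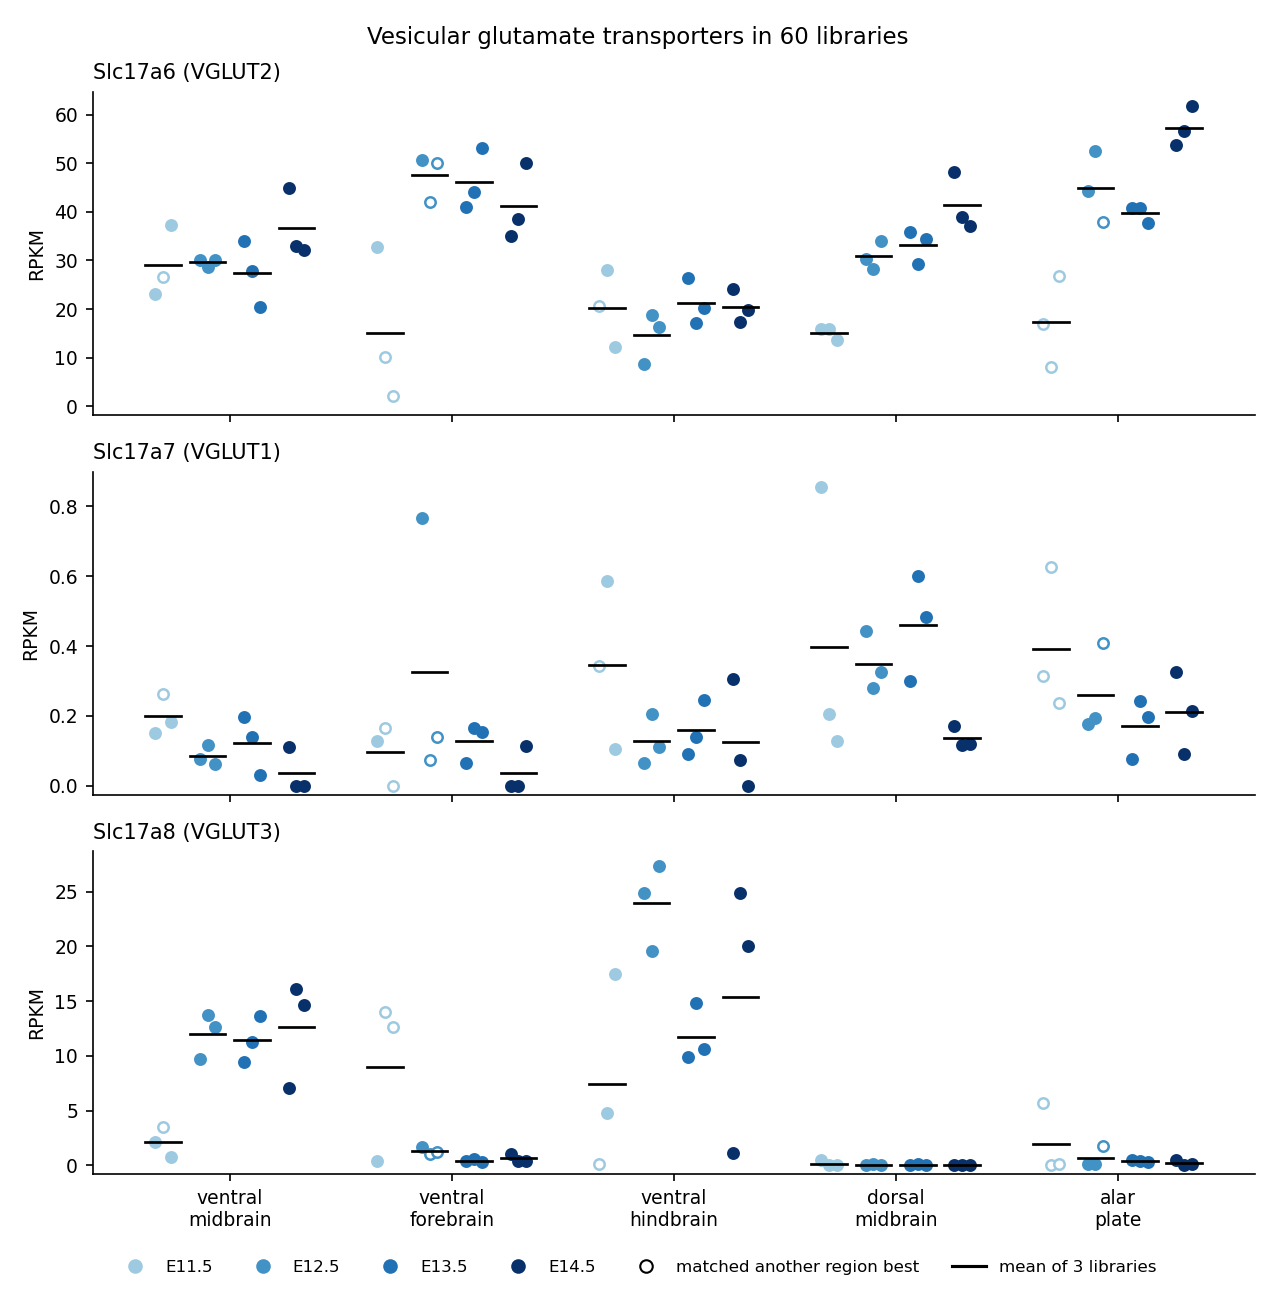
Each point is 1 library's RPKM (vertical axis, linear, a scale of its own for each gene), grouped by region with the stages E11.5 to E14.5 from light to dark. Open points are the 10 libraries that matched another region best, and bars are means of 3. Slc17a6 is present in every library, Slc17a7 stays under 1 RPKM, and Slc17a8 is high in the ventral midbrain and ventral hindbrain from E12.5 on, except for 1 ventral hindbrain library at E14.5.

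The 3 genes had very different levels, which RPKM allows to be compared between genes because it is per length. Slc17a6 was found in all 60 libraries, at 1.99 to 61.7 RPKM with a median of 31.3, and its group means reached 57.3 RPKM. Slc17a8 ran between 0 and 27.3 RPKM with a median of 0.918, and its group mean was at least 1 RPKM in 11 of 20 groups. Slc17a7 was under 1 RPKM in every library, with a highest value of 0.856 and a median of 0.16. Slc17a6 exceeded Slc17a8 in 52 of the 60 libraries. Of the 8 libraries with the opposite order, 6 were ventral hindbrain, and the other 2 were the ventral forebrain replicates 4 and 6 of E11.5 named above.

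Comparisons between regions used log2(RPKM + 1) in limma, and a gene was called when its Benjamini-Hochberg adjusted p over all features tested was under 0.05 and its log2 difference was at least 1 in size. A feature was tested where at least 1 group of the fit averaged 1 RPKM or more. Slc17a6 and Slc17a8 passed that filter in every comparison of regions, and Slc17a7 in none. With the stages averaged, each region minus the mean of the other 4, 1 of the 2 tested transporters was called in the ventral midbrain, none in the ventral forebrain, and 1 each in the ventral hindbrain, dorsal midbrain and alar plate. Over all 14692 features the share called was 1.72%, 0.776%, 1.57%, 4.51% and 0.619% in these 5 regions in that order. In each case the called transporter was Slc17a8. Each of the 5 differences of a gene is taken against the other 4 regions, so they depend on each other. High values in some regions lower the differences of the rest, and calls in several regions are not separate results. This holds at single stages too.

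Slc17a6, the VGLUT2 gene, was lowest in the ventral hindbrain from E12.5 on. At E12.5 it had 8.64, 18.7 and 16.3 RPKM in the ventral hindbrain. The other 12 libraries of that stage ran between 28.2 and 52.6 RPKM, so the groups did not overlap. The difference was −1.36 ± 0.17 on the log2(RPKM + 1) scale (SE, 15 libraries, limma, adjusted p = 0.000268). At E14.5 the ventral hindbrain had 24.2, 17.4 and 19.7 RPKM, and the other 12 libraries ran between 32.2 and 61.7 RPKM, again with no overlap. That difference was −1.06 ± 0.13 (limma, adjusted p = 0.000235), and −0.95, under the size needed for a call, without ventral hindbrain replicate 3. At E14.5 the library names fell under 2 prefixes, and within the prefix shared by ventral hindbrain, ventral forebrain and alar plate the difference was −1.21 (limma, adjusted p = 0.00117). At E13.5 the ventral hindbrain had 26.3, 17.1 and 20.2 RPKM and the ventral midbrain reached down to 20.4, so the groups overlapped. The difference there was −0.74 ± 0.14 (limma, adjusted p = 0.00119), under the size needed for a call. Averaged over stages it was −0.73 ± 0.16 (limma, adjusted p = 0.000291), also under that size, and −1.06 (adjusted p = 2.72e-11) without the E11.5 libraries.

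In the other regions Slc17a6 differed less. It was highest in the alar plate at E14.5, with 53.7, 56.6 and 61.7 RPKM, above all 12 other libraries of that stage. The difference of the alar plate from the other regions was 0.76 ± 0.13 (limma, adjusted p = 0.00294), under the size needed for a call, and 0.42 ± 0.16 (limma, adjusted p = 0.0724) over all stages. The ventral forebrain was on top at E13.5, with 41.1, 44.0 and 53.2 RPKM, just above the other 12 libraries, which reached 40.9 RPKM. How many of all features separate in this way was not counted at any stage. Its difference was 0.63 ± 0.14 at that stage (limma, adjusted p = 0.00886), and 0.15 ± 0.16 over all stages (limma, adjusted p = 0.656). The ventral midbrain and dorsal midbrain stood close to the mean of their other regions, at 0.13 ± 0.16 with a 95% interval of −0.19 to 0.44 and at 0.02 ± 0.16 with an interval of −0.29 to 0.34.

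The order of Slc17a6 means at E14.5 was alar plate (57.3 ± 4.06 RPKM), dorsal midbrain (41.4 ± 5.95), ventral forebrain (41.2 ± 7.90), ventral midbrain (36.7 ± 7.14) and ventral hindbrain (20.4 ± 3.48), each with its SD over 3 libraries. The middle neighbours in that order did not differ beyond their spread. The log2 difference was 0.01 in size between ventral forebrain and dorsal midbrain (limma, adjusted p = 0.972) and −0.17 for the ventral midbrain minus the ventral forebrain (limma, adjusted p = 0.54). The dorsal midbrain and alar plate libraries did not overlap, and their difference was −0.47 with a 95% interval of −0.81 to −0.13, but it did not pass after adjustment (limma, adjusted p = 0.0773). The lowest 2 stood further apart: the ventral midbrain minus the ventral hindbrain gave 0.81 ± 0.16 (limma, adjusted p = 0.0211), with no overlap of their libraries. All of these pairs crossed the name prefixes of E14.5, so region and prefix cannot be told apart in them.

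At single stages none of the 2 transporters was called in any region at E11.5, where 0.0217% of 13802 features were called in the ventral midbrain, 0.688% in the dorsal midbrain and 0% in each of the other 3 regions. The E11.5 fit without the mismatched libraries had no alar plate and kept ventral forebrain replicate 2 alone. In it the Slc17a8 difference was 2.71 in the ventral hindbrain and −1.49 in the dorsal midbrain. The dorsal midbrain libraries of E11.5 had a name prefix that no other region had at that stage. Region and prefix therefore cannot be told apart for the dorsal midbrain there. At E12.5 Slc17a8 was called in all 5 regions and Slc17a6 only in the ventral hindbrain, against 3.53% of 13733 features called in the ventral midbrain, 0.597% in the ventral forebrain, 2.48% in the ventral hindbrain, 5.25% in the dorsal midbrain and 1.23% in the alar plate. At E13.5 Slc17a8 was again called in all 5 and Slc17a6 in none, with 2.41%, 1.82%, 3.28%, 8.01% and 0.967% of 13851 features called in the same order of regions. At E14.5 Slc17a8 was called in the ventral midbrain, ventral hindbrain and dorsal midbrain and Slc17a6 in the ventral hindbrain, with 3.28%, 2.32%, 1.85%, 7.00% and 1.32% of 14013 features called.

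**Figure D2:**
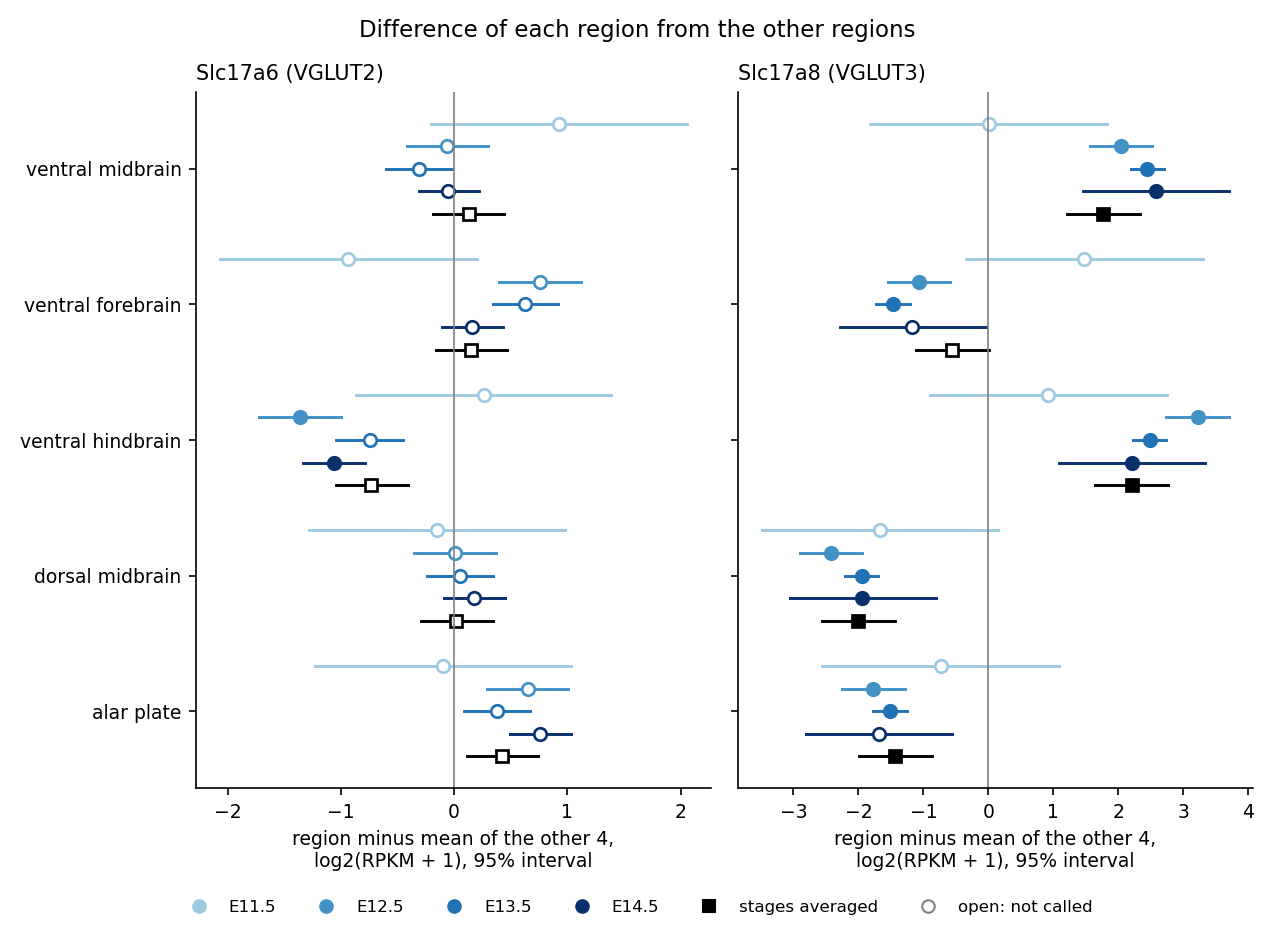
Log2(RPKM + 1) difference of each region from the mean of the other 4 (horizontal axis) with its 95% interval, by stage (circles, light to dark) and averaged over stages (black squares). Filled symbols were called and open ones were not. Slc17a6 (left) was called only in the ventral hindbrain at E12.5 and E14.5, and Slc17a8 (right) was higher in the ventral midbrain and ventral hindbrain and lower in the dorsal midbrain at E12.5, E13.5 and E14.5.

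Slc17a8, the VGLUT3 gene, was high in the ventral midbrain and ventral hindbrain and low elsewhere from E12.5 on. At E11.5 its highest group mean was 9.0 RPKM in the ventral forebrain, from libraries of 0.426, 14 and 12.6 RPKM, of which the 2 high ones matched another region best. Averaged over stages the ventral hindbrain was 2.21 ± 0.28 above the other regions (SE, 60 libraries, limma, adjusted p = 6.22e-08) and the ventral midbrain 1.77 ± 0.28 above them (limma, adjusted p = 3.04e-06). The dorsal midbrain was lower by a difference of −2.0 ± 0.28 (limma, adjusted p = 6.08e-08) and the alar plate by −1.43 ± 0.28 (limma, adjusted p = 0.000389). These 4 calls were also made without the 10 libraries that matched another region best. The ventral forebrain gave −0.56 ± 0.28 with all libraries (limma, adjusted p = 0.252) and −1.12 without those 10 (limma, adjusted p = 0.00194). Differences on this scale understate the change of low genes.

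At E12.5 Slc17a8 had 24.9, 19.6 and 27.3 RPKM in the ventral hindbrain, above all 12 other libraries of the stage. The ventral midbrain followed with 9.75, 13.7 and 12.6 RPKM, and the ventral forebrain had 1.67, 1.05 and 1.21. In the alar plate 2 libraries had 0.168 and 0.147 RPKM, and replicate 3, which matched the dorsal midbrain best, had 1.82. The dorsal midbrain was lowest, with 0.0789, 0.0933 and 0.0792 RPKM, which were 4, 5 and 4 reads. The ventral hindbrain differed from the other regions by 3.22 ± 0.22 and the ventral midbrain by 2.04 ± 0.22 (limma, adjusted p = 1.52e-06 and 4.22e-05). The ventral forebrain was called at −1.07 ± 0.22 (limma, adjusted p = 0.023). Without the mismatched libraries, which left replicate 1 alone, its difference was −0.74, under the size needed for a call. In that library Nkx2-1 stood at 0.0357 RPKM, against 0.561 and 13.9 RPKM in replicates 2 and 3.

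At E13.5 both ventral regions had similar levels, with 9.41, 11.3 and 13.6 RPKM in the ventral midbrain and 9.86, 14.8 and 10.6 RPKM in the ventral hindbrain. All 6 stood above the other 9 libraries of the stage, which ran no higher than 0.553 RPKM. The differences from the other regions were 2.45 ± 0.12 in the ventral midbrain and 2.49 ± 0.12 in the ventral hindbrain (limma, adjusted p = 1.63e-08 and 2.74e-08).

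At E14.5 the ventral midbrain had 7.09, 16.1 and 14.6 RPKM and differed from the other regions by 2.58 ± 0.53 (limma, adjusted p = 0.00525). The ventral hindbrain had 24.9 and 20 RPKM in replicates 3 and 4 and 1.12 RPKM in replicate 2, and differed by 2.21 ± 0.53 (limma, adjusted p = 0.0219). Replicate 2 of the ventral hindbrain thus lay near the ventral forebrain, which had 1.06, 0.449 and 0.415 RPKM. It was also low in other ventral genes: the floor plate factor Foxa2 was listed at 0 in it, against 4.44 and 4.52 RPKM in replicates 3 and 4, and Tph2 stood at 2.04 against 19.3 and 16.4 RPKM. En2 stood at 58 against 8.78 and 5.85 RPKM, and the summed RPKM of the dorsal midbrain list at 189 against 44.5 and 32.7. Replicate 2 matched its own region best, but with a correlation of 0.31, against 0.79 and 0.81 in replicates 3 and 4. Without either of the high libraries the ventral hindbrain call was lost, at 1.56 and 1.71 (limma, adjusted p = 0.175 and 0.166), and without replicate 2 it was 3.36 (adjusted p = 6.55e-06). Within name prefixes, the ventral hindbrain difference was 2.91 (limma, adjusted p = 0.0436) and the ventral midbrain exceeded the dorsal midbrain by 3.62 (limma, adjusted p = 6.64e-05).

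The ventral midbrain and ventral hindbrain, the top 2 in the order of Slc17a8 levels, were not told apart by the test. The ventral midbrain minus the ventral hindbrain was −0.94 ± 0.28 at E12.5 (95% interval −1.54 to −0.33, limma, adjusted p = 0.0923), although their libraries did not overlap there. It was −0.03 ± 0.15 at E13.5 (interval −0.36 to 0.29, adjusted p = 0.931) and 0.30 ± 0.67 at E14.5 (interval −1.12 to 1.73, adjusted p = 0.944). The regions of this pair also differed in name prefix at E14.5. Slc17a6 was called in this pair at E12.5 alone, at 1.04 ± 0.21 (limma, adjusted p = 0.0117). That call was lost without ventral midbrain replicate 1 or 3 (adjusted p = 0.0566 and 0.0504) or ventral hindbrain replicate 1 (0.73). Over all features 2.27%, 1.89% and 0.821% were called between these regions at E12.5, E13.5 and E14.5.

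Slc17a8 in the dorsal midbrain was near the limit of detection. It had 4, 2 and 0 reads at E11.5 and 0, 1 and 1 reads at E14.5. A count of 0 still allows up to 3 reads. For this gene in the dorsal midbrain libraries that is 0.102 to 0.343 RPKM at E11.5 and 0.235 to 0.345 RPKM at E14.5. These limits cover counting error only. In the dorsal midbrain at E12.5, E13.5 and E14.5 all 9 libraries had at most 10 reads.

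Within a library, Slc17a6 made up nearly all of the summed RPKM of the 3 transporters in the ventral forebrain, dorsal midbrain and alar plate from E12.5 on, and Slc17a8 took a large share in the other 2 regions. In the ventral hindbrain the share of Slc17a8 was 62.5% ± 11.6 at E12.5, 35.8% ± 9.65 at E13.5 and 37.8% ± 29.3 at E14.5 (SD, n = 3 each). In the ventral midbrain it was 28.7% ± 3.96, 30.1% ± 9.28 and 25.9% ± 10.7 at these stages. In the dorsal midbrain it was 0.27%, 0.219% and 0.139%, and Slc17a6 made up 98.6%, 98.4% and 99.5%. Slc17a8 exceeded Slc17a6 in all 3 ventral hindbrain libraries at E12.5, where replicate 2 had 19.6 RPKM of Slc17a8 and 18.7 of Slc17a6. The shares are a description and were not tested.

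**Figure D3:**
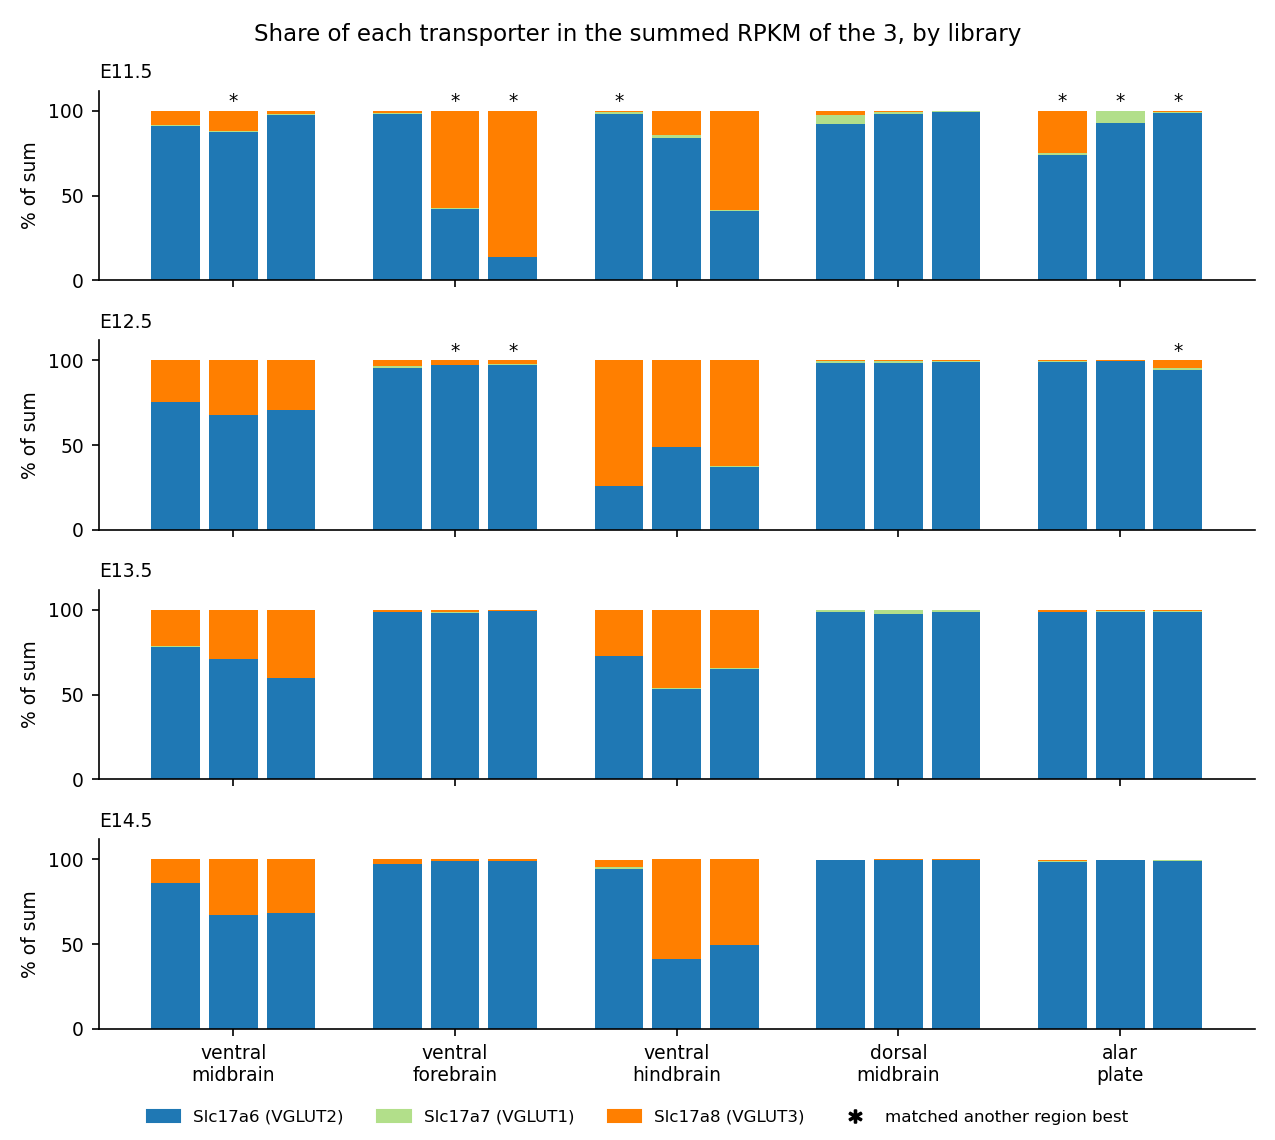
Each bar is 1 library, split into the percent of the summed RPKM of the 3 transporters that each gene made up (vertical axis), with 1 panel per stage. Stars mark libraries that matched another region best. From E12.5 on, Slc17a8 is a visible share in the ventral midbrain and in all but 1 ventral hindbrain library, and Slc17a6 fills nearly the whole bar in the other 3 regions.

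Slc17a7, the VGLUT1 gene, was low in every library and at or near the limit of detection in many. It had 0 to 43 reads per library with a median of 3, was listed at 0 in 6 libraries, and had 1 to 3 reads in 25 more. The other 29 libraries had over 3 reads. Its highest group mean was 0.461 ± 0.151 RPKM in the dorsal midbrain at E13.5, from libraries of 0.3, 0.6 and 0.483 RPKM. The other 12 libraries of that stage averaged 0.146 RPKM. An exact two-sided permutation test of that difference gave p = 0.0044, and 0.0879 after Benjamini-Hochberg adjustment over 20 such tests, 5 regions at 4 stages. None of the 20 passed, and the smallest p that 3 against 12 libraries allow is 0.0022. The limit that a count of 0 allows for this gene was as high as 1.01 RPKM in the shallowest E14.5 library, so differences below that level could not be detected there.

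Over the 3 days from E11.5 to E14.5, Slc17a6 was higher at the later stage in the dorsal midbrain, alar plate and ventral forebrain. All E12.5 libraries shared 1 name prefix and all E13.5 libraries another, and no region had E11.5 and E14.5 libraries with the same prefix, so stage and whatever the prefix stands for cannot be told apart. In the comparison of E14.5 with E11.5 within a region, 1 of 2 transporters was called in the ventral midbrain, 2 of 2 in the ventral forebrain, 0 of 2 in the ventral hindbrain, 1 of 1 in the dorsal midbrain and 1 of 2 in the alar plate. Over all features 17.8%, 16.4%, 16.6%, 15.9% and 20.2% were called in these regions, so such calls were common.

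In the dorsal midbrain Slc17a6 had 48.2, 38.9 and 37.1 RPKM at E14.5, against 15.9, 15.9 and 13.6 RPKM at E11.5. The groups did not overlap, and the change was 1.39 ± 0.12 (SE, 12 libraries, limma, adjusted p = 8.48e-06). Beside it, 11 of 14 pan-neuronal genes were called higher and 2 lower in the dorsal midbrain, with a median log2 change of 1.27, where the median of all features was −0.08. Of the 8 meningeal and mesenchymal genes 5 were called lower there, with a median of −1.63, and of 6 tested blood genes 1 was higher and 4 lower. Their part in the result was not tested.

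In the alar plate Slc17a6 had 53.7, 56.6 and 61.7 RPKM at E14.5, against 17.0, 8.16 and 26.7 RPKM at E11.5, a change of 1.81 ± 0.31 (limma, adjusted p = 0.00122). The groups did not overlap. All 3 alar plate libraries of E11.5 matched another region best, so no value without them could be had. The summed RPKM of the pan-neuronal list was 400 in the E11.5 library with 8.16 RPKM and at least 2930 in the E14.5 libraries. In the ventral forebrain Slc17a6 had 35.0, 38.6 and 50.1 RPKM at E14.5, against 32.8, 10.2 and 1.99 RPKM at E11.5. Without the mismatched libraries, the 2 low ones, replicate 2 alone was left at E11.5, and the change was 0.31. With all libraries the change was 2.0 ± 0.62 (limma, adjusted p = 0.0215). Beside it, 8 of 14 pan-neuronal genes were called higher and 1 lower, and 4 of 6 tested blood genes lower. The library with 1.99 RPKM had a summed pan-neuronal level of 882 RPKM, a blood level of 18900 and a meningeal and mesenchymal level of 1280. Their part in the result was not tested.

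In the ventral midbrain Slc17a6 had 44.9, 32.9 and 32.2 RPKM at E14.5, against 23.0, 26.5 and 37.4 RPKM at E11.5, and the groups overlapped. The change of 0.34 ± 0.20 (95% interval −0.09 to 0.78) did not pass (limma, adjusted p = 0.155). In the ventral hindbrain it was 0.07 ± 0.31 (interval −0.60 to 0.75, limma, adjusted p = 0.85). Of the 14 pan-neuronal genes, 5 were called higher and none lower in the ventral midbrain, with a median log2 change of 0.75. In the ventral hindbrain 5 were called higher and 1 lower, with a median of 0.70. Pan-neuronal genes were thus also higher where Slc17a6 was not called.

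Slc17a8 was higher at E14.5 than at E11.5 in the ventral midbrain. It had 7.09, 16.1 and 14.6 RPKM at E14.5, against 2.13, 3.51 and 0.788 RPKM at E11.5, with no overlap, and changed by 2.14 ± 0.33 (limma, adjusted p = 0.000154). The step between E12.5 and E11.5 was as large, at 2.14 ± 0.33 (limma, adjusted p = 0.000259), and the later daily steps were −0.07 and 0.07 with neither called. In the ventral hindbrain the 3 libraries of E11.5 were spread, with 0.0917, 4.77 and 17.5 RPKM, and the change to E14.5 of 1.10 ± 1.0 did not pass (limma, adjusted p = 0.359). It was 2.26 (adjusted p = 0.0415) without ventral hindbrain E14.5 replicate 2, and 0.02 without the mismatched library of E11.5, which was the lowest. In the ventral forebrain Slc17a8 changed by −2.04 ± 0.69 (limma, adjusted p = 0.0321) with all libraries. Without the mismatched ones, which left replicate 2 alone at E11.5, it changed by 0.18.

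Between E12.5 and E11.5, Slc17a8 was called in the ventral midbrain, and Slc17a6 in the ventral forebrain at 2.21 ± 0.62 (limma, adjusted p = 0.0127) and in the alar plate at 1.46 ± 0.31 (limma, adjusted p = 0.00775). Without the mismatched libraries the ventral forebrain step was 0.61, from replicate 2 alone at E11.5 and replicate 1 alone at E12.5. The alar plate step could not be had. Slc17a6 in the dorsal midbrain reached 0.98 ± 0.12 (limma, adjusted p = 0.000109), just under the size needed for a call. Neither transporter was called in the ventral hindbrain at this step. Over all features 9.26%, 17.9%, 11.3%, 7.77% and 9.99% were called between these stages in the ventral midbrain, ventral forebrain, ventral hindbrain, dorsal midbrain and alar plate.

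Whether the 3-day change itself differed between regions was tested across the 30 libraries of E11.5 and E14.5. Neither transporter was called in any region, where 0.918%, 0.795%, 0.117%, 2.27% and 0.363% of 14590 features were called in the same order of regions. The largest difference for Slc17a8 was −2.64 ± 1.05 for the ventral forebrain minus the other regions (limma, adjusted p = 0.328, and −0.60 without the mismatched libraries), and the ventral midbrain gave 2.58 ± 1.05 (limma, adjusted p = 0.236). For Slc17a6 the ventral hindbrain minus the other regions gave −1.31 ± 0.56 (limma, adjusted p = 0.45). The fit without the mismatched libraries left out the alar plate and kept ventral forebrain replicate 2 alone at E11.5. In it the dorsal midbrain change of Slc17a6 exceeded that of the other regions by 1.15, against 0.33 ± 0.56 with all libraries. At E11.5 the dorsal midbrain had a name prefix that no other region had, so region and prefix cannot be told apart in either value.

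**Figure D4:**
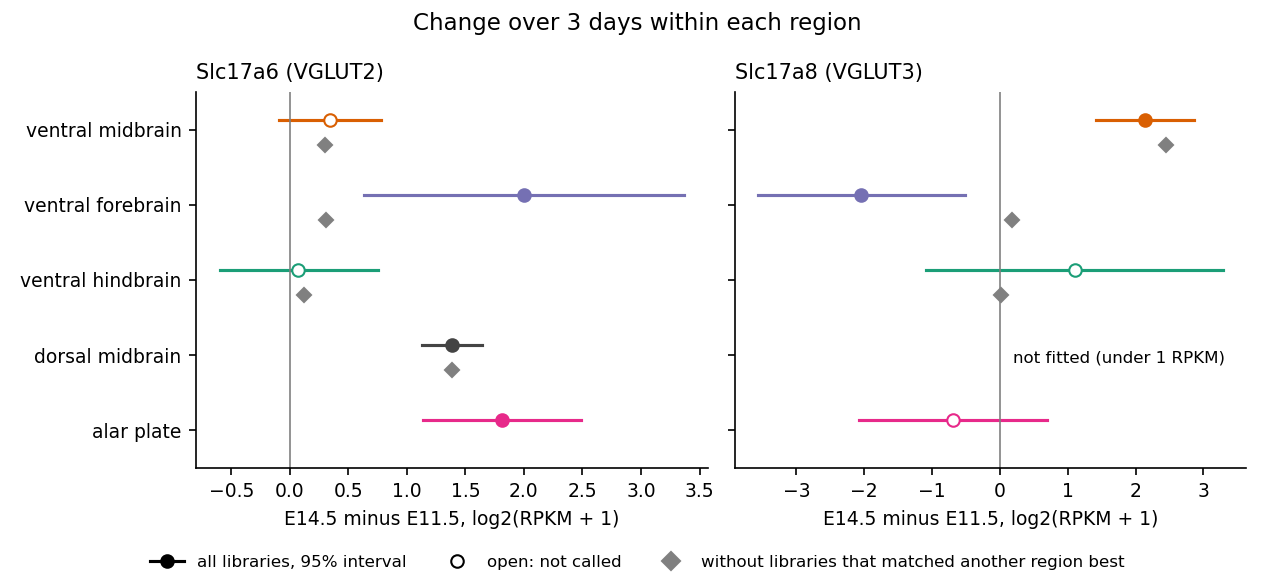
Log2(RPKM + 1) change of E14.5 minus E11.5 in each region (horizontal axis) with its 95% interval, filled where called. Grey diamonds are the same change without the libraries that matched another region best, which could not be had for the alar plate. In the ventral forebrain the diamonds rest on replicate 2 alone at E11.5. The ventral forebrain changes of 2.0 for Slc17a6 and −2.04 for Slc17a8 shrink to 0.31 and 0.18, and the ventral midbrain change of Slc17a8, 2.14 with all libraries, remains above 0.

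Among features with a mean of at least 1 RPKM in any group, the 5 whose group means went most closely with Slc17a8 were Dnah9, Ccdc3, Lgi3, Tph2 and Slc6a4. Pearson's r over the 20 group means of log2(RPKM + 1) was 0.97, 0.97, 0.97, 0.96 and 0.96, and over the 60 libraries it was 0.94, 0.91, 0.95, 0.95 and 0.93. These are descriptions over groups that share stages, name prefixes and dissections. Dnah9 encodes a dynein heavy chain of motile cilia and Lgi3 a secreted leucine-rich protein. Tph2 makes serotonin in neurons, and Slc6a4 is the serotonin reuptake transporter. All 5 had their highest group mean in the ventral hindbrain at E12.5, with 20.3 RPKM for Tph2 and 32.6 RPKM for Slc6a4. Fev, a transcription factor of serotonergic neurons, was fixed as a comparison gene, and its r with Slc17a8 was 0.95 over groups.

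**Figure D5:**
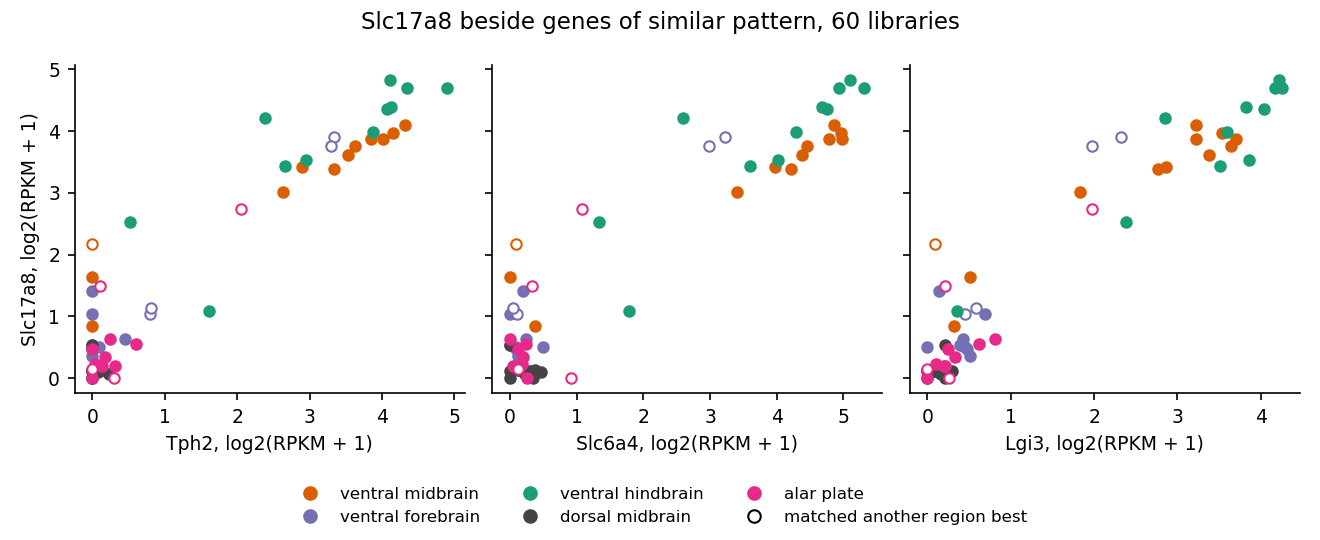
Slc17a8 (vertical axis) beside Tph2, Slc6a4 and Lgi3 (horizontal axes), all as log2(RPKM + 1), 1 point per library, coloured by region and open where the library matched another region best. Most libraries of the ventral hindbrain and ventral midbrain lie together at high values of both genes, and Slc17a8 is above 1 RPKM with Tph2 at 0 in some E11.5 ventral midbrain and E12.5 ventral forebrain libraries.

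The serotonergic list moved only in part with Slc17a8 across regions. Of its 8 genes, 4 were called higher in the ventral midbrain (Fev 1.96 ± 0.20, Tph2 1.67 ± 0.23, Slc6a4 2.20 ± 0.20 and Lmx1b 1.98 ± 0.25 on the log2 scale) and 4 in the ventral hindbrain, with none lower in either. In both the dorsal midbrain and the alar plate 4 of 8 were called lower and none higher, and in the ventral forebrain 3 were lower. The median difference was 1.24 in the ventral midbrain and 0.98 in the ventral hindbrain, where the median of all features was −0.02 in both. Other lists were also high in the ventral midbrain: 8 of 8 dopaminergic genes were called higher (median 3.33) and 4 of 5 tested cholinergic motor genes (median 1.35). In the ventral hindbrain 1 dopaminergic gene was higher and 2 lower, and 1 cholinergic motor gene was higher and none lower. Without the mismatched libraries 6 of the 8 were called higher in the ventral hindbrain. In the ventral hindbrain at E14.5 the summed serotonergic RPKM was 21.1 in replicate 2, the low Slc17a8 library, and 115 in replicate 3. At E13.5 this sum was 77.9, 107 and 90.9 in the ventral hindbrain. It was still 51.1, 55.1 and 54.3 in the dorsal midbrain, where Slc17a8 had at most 0.0932 RPKM. The alar plate had sums of 66.5, 64 and 60.1, with Slc17a8 at no more than 0.459 RPKM. Fev and Tph2 were listed at 0 in all 3 dorsal midbrain libraries of E14.5. In the ventral midbrain at E11.5, Tph2 was listed at 0 in all 3 libraries while Slc17a8 had 13 to 80 reads. The part of serotonergic cells in the Slc17a8 level was not tested.

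The transporters of other transmitters differed between the same regions. Slc18a2, which loads monoamines into vesicles, was higher in the ventral midbrain by 2.38 ± 0.18 (limma, adjusted p = 1.63e-14), and Slc18a3, which loads acetylcholine, by 1.35 ± 0.13 (limma, adjusted p = 4.19e-11). Slc32a1, which loads GABA and glycine, was higher in the ventral hindbrain by 1.27 ± 0.27 (limma, adjusted p = 0.000211), the region where Slc17a6 was lowest. Of the 12 genes of a separate GABAergic list, none was called higher there and 3 were lower, with a median of 0.03. Slc30a3, which loads zinc into vesicles of glutamatergic neurons, was higher in the ventral hindbrain by 1.96 ± 0.25 and lower in the dorsal midbrain (−1.47 ± 0.25) and ventral forebrain (−1.10 ± 0.25). Of 4 tested genes of this list, 2 were higher in the ventral midbrain and 2 in the ventral hindbrain, 2 were lower in the dorsal midbrain, and 1 was lower in the ventral forebrain and 1 in the alar plate.

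The genes that make and recycle glutamate were close to even over the regions. None of 8 tested genes of that list was called in any of the 5 regions, and the list's median lay between −0.06 and 0.04 on the log2 scale. Of 4 tested plasma membrane glutamate transporters, Slc1a3, the carrier of radial glia, was higher in the ventral midbrain (1.11 ± 0.18) and ventral hindbrain (1.31 ± 0.18). It was lower in the dorsal midbrain (−1.39 ± 0.18), as was Slc1a1, a neuronal carrier (−1.25 ± 0.12). Among the other SLC17 genes only Slc17a5, a lysosomal carrier, passed the filter, and its group means stayed between 2.21 and 4.56 RPKM.

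Transcription factors of glutamatergic lineages were unevenly spread. Of 18 tested, 7 were higher and 2 lower in the dorsal midbrain, 6 were higher and none lower in the alar plate, and 1 was higher and 6 lower in both the ventral midbrain and the ventral hindbrain. In the ventral forebrain 1 was higher and 3 were lower. Lhx9 was higher in the dorsal midbrain (2.46 ± 0.31) and alar plate (2.62 ± 0.31) and lower in the ventral midbrain (−2.66 ± 0.31), and Pou4f1 was higher in the dorsal midbrain (2.51 ± 0.21) and lower in the ventral forebrain (−2.67 ± 0.21). In the ventral forebrain, where Slc17a6 had its highest group means at E12.5 and E13.5, 4 of these factors were higher and 2 lower without the mismatched libraries. The median over the list was 0.47 in the dorsal midbrain, 0.48 in the alar plate and −0.51 in the ventral midbrain.

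The 5 features whose group means went most closely with Slc17a6 were Syt13, Nrn1, Islr2, Ypel1 and Col25a1, with r of 0.88, 0.87, 0.87, 0.84 and 0.84 over the 20 groups and 0.71, 0.86, 0.80, 0.72 and 0.66 over the 60 libraries. Syt13 is a synaptotagmin, Nrn1 encodes neuritin, a surface protein of growing neurites, and Islr2 a membrane protein of growing axons. Slc17a6 and Slc17a8 had r = −0.48 over groups. Slc17a6 and Gad1, which makes GABA, had r = 0.51.

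Markers of other cell types moved with some regions. Sensory ganglion cells express Slc17a6, and the summed RPKM of a 6-gene ganglion list, 2 genes of which (Isl1 and Pou4f1) are also used within the brain, ran between 37.2 and 170 in the dorsal midbrain and between 7.27 and 55.1 in the ventral forebrain. It reached 181 in the ventral hindbrain at E13.5. In the dorsal midbrain 2 of its 6 genes were called higher and none lower, in the alar plate 2 were higher and 1 lower, and in the ventral forebrain 3 were lower. The pan-neuronal sum was lowest in the dorsal midbrain, with a mean of 2240 RPKM over its 12 libraries, and 3160 RPKM in the ventral midbrain, although no pan-neuronal gene was called in the dorsal midbrain. Meningeal and mesenchymal genes were higher in the dorsal midbrain (5 of 8) and lower in the ventral hindbrain (5 of 8). Their part in the levels of the transporters was not tested.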

How the data were processed

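Gene expression was read from 1 table of 24378 features in 60 libraries. The authors deposited RPKM values. Per the submitters' processing notes Bowtie and the mm10 build were used, with the Bowtie version, the counter, the annotation release and strand use not given in the sources used here. Multiplied by the listed length, the deposited RPKM of each library summed to 1000000, and 100.0% of values were whole reads within 0.001 of a read.

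Regions and stages were compared with limma 3.58.1 (R 4.3.3, trended variance) on log2(RPKM + 1), with p-values adjusted by the Benjamini-Hochberg method over all features of a fit. Comparisons at 1 stage used the 15 libraries of that stage, changes over stages the 12 of a region, and stage averages all 60. Slc17a7, under the filter of 1 RPKM, was tested by exact permutation. The scripts were tested on simulated data. The named genes were the 3 transporters, the 5 features of highest Pearson r with Slc17a6 or Slc17a8 over group means, and up to 4 of smallest adjusted p per list. The members and gene lists were chosen with earlier results of these data known. Alternatives were a pseudocount of 0.1, no filter, voom on recovered reads, quantile normalisation, a replicate block, each library left out, no E11.5 libraries and, added after the data were seen, fits without mismatched libraries or within a name prefix. Figures were drawn with matplotlib 3.10.9.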

Additional observations from a re-analysis of the deposited data

How the results depend on the processing

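Of 4194 alternatives computed for 176 limma results, 4100 kept their side of the threshold, 55 lost a call, 37 gained one and 2 reversed. A reversal was counted only where either fit had a call, so the 4100 include changes of direction between fits without one. The ventral forebrain changes of E14.5 minus E11.5 were the least stable. For Slc17a6 the change was 2.0 with no filter, 1.41 with the replicate block and 0.31 without the mismatched libraries, none of them called, and 1.10 to 2.85 with 1 library left out, where the call was lost without ventral forebrain E14.5 replicate 4. For Slc17a8 it was −2.04 with no filter, −3.32 with voom and −1.51 with the replicate block, none called, 0.18 without the mismatched libraries, and −3.14 to −1.44 with 1 library left out. That last call was lost without ventral forebrain E11.5 replicate 4 or 6, or E14.5 replicate 2, 3 or 4. The ventral hindbrain change of Slc17a8 ran between 0.02 and 2.26 with 1 library left out. Averaged over stages, Slc17a6 in the ventral hindbrain was −1.06 without E11.5, and Slc17a8 in the ventral forebrain was −1.23 without E11.5 and −1.12 without the mismatched libraries, all called. The ventral forebrain minus ventral hindbrain difference of Slc17a8 at E11.5 was −2.86 without the mismatched libraries, against 0.44 with them. The causes were not tested.

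Samples of the same replicate number deviated together with a correlation over 0.1 in 10, 18, 21 and 12 of 30 pairs at the 4 stages, earliest first, with medians of 0.00, 0.22, 0.17 and 0.07, against −0.01, −0.09, −0.07 and −0.05 for different numbers. Since some pairs lay under 0.1 at every stage, the samples were taken to share only a number. Most same-numbered pairs did deviate together at E12.5 and E13.5, and what they shared was not tested. The replicate block changed no call of a transporter between regions. In changes over stages the block tied libraries of different stages, and so of different embryos, by number alone. E11.5 and E12.5 shared only number 2, so the blocked steps between them cannot show an effect of pairing. In these steps the block gave Slc17a6 1.66 in the alar plate (limma, adjusted p = 0.243) and 1.34 in the ventral forebrain (limma, adjusted p = 0.291), both no longer called. It gave a called Slc17a8 step of 3.35 in the ventral hindbrain (limma, adjusted p = 0.0167). With a pseudocount of 0.1 the features called rose in number to 626, 269, 675, 1480 and 244, and with voom to 611, 257, 726, 1602 and 261, against 252, 114, 231, 663 and 91, in the ventral midbrain, ventral forebrain, ventral hindbrain, dorsal midbrain and alar plate averaged over stages. The alar plate count was 156 without E11.5 and 163 without the mismatched libraries. Slc17a8 in the ventral forebrain at E12.5 was not called with a pseudocount of 0.1 (−0.71) or voom (−0.40), and Slc17a8 in the dorsal midbrain at E14.5 not with voom (adjusted p = 0.309). The shallow E11.5 and E14.5 libraries limit Slc17a7 and low Slc17a8 values most.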
